A study of Rubus idaeus with 6 samples.

Results

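Transcripts of 64 translation and RNA-binding gene models, out of 19951 in the deposited table, were compared between axillary buds of ‘Heritage’ and ‘Wakefield’ raspberry. They are gene models in the LG3 and LG4 intervals mapped for annual fruiting whose description in the study's list of interval genes holds ribosom, translation, tRNA, elongation factor, pentatricopeptide, PPR, RNA-binding or RNA helicase. Descriptions with kinase, transporter, ubiquitin, zinc finger or peptidase were left out, as were FCA and FY. Together these exclusions removed 1 gene model. Descriptions and not values chose the members. The part of the list used here holds 1998 gene models, from 35037390 to 43717084 bp of LG3 and from 1794 to 7439980 bp of LG4 of R. occidentalis ORUS 4115-3 v3.0, and 1341 of them have a description. On LG3 424 of 974 are described, mostly by a gene symbol, against 917 of 1024 on LG4. The rule accordingly found 8 members on LG3 and 56 on LG4, and further genes of this kind may be among the 657 without a description. The study's LG4 interval runs on beyond 7439980 bp, and gene models there are not covered by the part used.

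‘Heritage’ is an annual-fruiting (AF) and ‘Wakefield’ a biennial-fruiting (BF) cultivar of red raspberry (Rubus idaeus). Buds from 5 to 10 nodes below the apex of plants grown in the field were taken on November 5, in spring or early summer, under standard conditions, and 3 biological replicates of each cultivar were sequenced. Each fruiting habit is represented by 1 cultivar, so that fruiting habit and the other differences between the cultivars cannot be told apart. The ‘Heritage’ libraries are numbered 62, 63 and 64 and the ‘Wakefield’ libraries 59, 60 and 61, the order in which values are given below.

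Ribosomes read messenger RNA into protein. Aminoacyl-tRNA synthetases charge each tRNA with its amino acid, and initiation and elongation factors guide the steps of translation. RNA helicases unwind RNA during splicing and ribosome assembly, and proteins with an RNA recognition motif (RRM) or a KH domain bind RNA directly. Pentatricopeptide repeat (PPR) proteins form a large family in plants, most of them encoded in the nucleus and imported into plastids or mitochondria, where they bind, edit or stabilise organellar transcripts. Plastids and mitochondria have ribosomes of their own, with nuclear-encoded subunits.

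The deposited values are counts per gene model divided by a size factor per library, and 7345603 to 14977596 reads per library lie behind them. They are not corrected for gene length, so levels are compared between cultivars and not between genes. Each fold change is a log2 difference of ‘Heritage’ minus ‘Wakefield’ on log2(normalized count + 1). Gene models with at least 10 in at least 3 libraries were tested with limma, and p-values were adjusted over all 17898 of them. Values written with ± are the mean and SD over the 3 libraries of a cultivar. The median log2 fold change of all 17898 was 0.01. Photosynthesis markers differed between the cultivars. The summed normalized count of 8 gene models of the intervals described by a photosystem or light-harvesting term was 9913 to 10840.3 in ‘Heritage’ and 15175 to 20781 in ‘Wakefield’, and 4 of the 8 were lower in ‘Heritage’ and none higher (adjusted p under 0.05 from limma). Of the 4 not called, Ro04_G00083 went the other way, with mean normalized counts of 429 and 180.2 (log2 fold change 1.13, limma adjusted p = 0.0538). Its description opens with a putative ran guanine nucleotide release factor, and the photosystem term stands only in a family name. The other markers all had log2 fold changes below 0, from -1.52 to -0.27. Of 5 pollen and anther gene models 1 was higher and 1 was lower. Among the terms set for axillary buds only a TCP14 gene model (Ro04_G00084) was found, which was higher in ‘Heritage’ (mean normalized counts of 332 and 163, log2 fold change 1.02, limma adjusted p = 0.00304). It is not specific to buds, so that these terms gave no marker to check the bud label by. The study names a dormancy-associated gene model among its candidates in the intervals, which the terms did not find and which was not examined here. In bulk buds, fewer cells of a type and less RNA per cell cannot be told apart.

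Most translation and RNA-binding gene models of the intervals were not called different between buds of the cultivars. Of 64 members 62 were tested, 7 were higher in ‘Heritage’, 7 were lower and 48 did not pass (adjusted p under 0.05 from limma). Of the whole table tested, 16.0% were higher and 17.5% lower by this criterion, together 33.5%, against 22.6% of the members. The groups of members by role hold 2 to 12 tested gene models each, too few for their shares to be read against these. The median size of the log2 fold change was 0.21 in the members and 0.38 over all gene models tested, with medians with sign of 0.10 and 0.01. Of the members 82.3% lay within 0.5 of 0 on the log2 scale, against 59.7% of all gene models. The study's methods call a DEG at an adjusted p under 0.01 with more than a 2-fold change, and by these limits 1 member was a DEG higher in ‘Heritage’ and 2 were DEGs lower. Over all gene models these shares were 4.45% and 5.17% in limma, together 9.62%. The study used DESeq2 with a further alpha threshold and reports smaller shares in both directions, so the limma shares are not its DEG rates. The libraries of the cultivars did not overlap for 26 of the 62 members, 14 above and 12 below, and for 53.2% of all gene models tested, 27.0% above and 26.2% below. For 44 of the 48 members that did not pass, the 95% interval of the log2 fold change lay between -1 and 1.

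**Figure D1:**
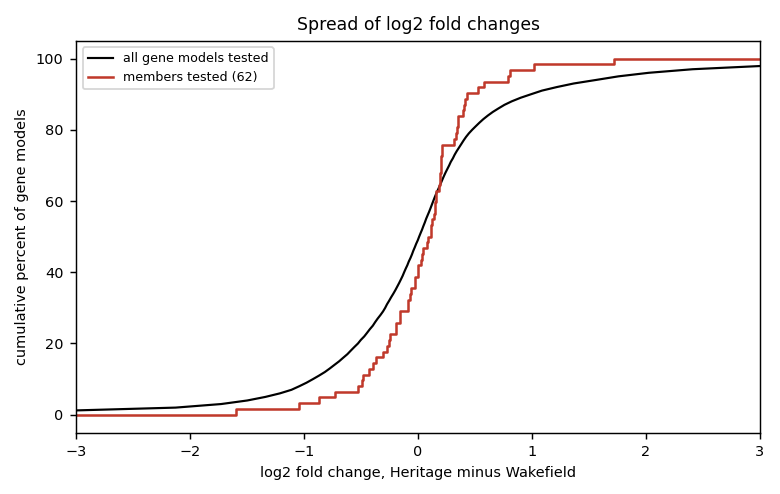
Cumulative percent of gene models (y axis) by log2 fold change of ‘Heritage’ minus ‘Wakefield’ (x axis, cropped at -3 and 3), for all 17898 gene models tested (black) and the 62 members tested (red). The red line is steeper around 0, with 82.3% of members between -0.5 and 0.5 against 59.7% of all gene models.

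How many members passed depended on the libraries. Where ‘Heritage’ library 62, 63 or 64 was left out, 3, 1 and 4 members were higher in place of 7, and 3 where ‘Wakefield’ library 60 was, and the 7 lower ones were 3, 3 and 2 without libraries 62, 63 and 64. Over all gene models the share called was lower too, at 19.7%, 17.2% and 23.2% without libraries 62, 63 and 64 and 24.3% without library 60. In limma 3 members still passed whichever of the 6 libraries was left out, and these are also the 3 DEGs over all libraries. They were ribosomal protein S15A (Ro04_G02530), a gene model described as a DEAD/DEAH box helicase (Ro04_G07183) and SNI1 (Ro03_G05193). SNI1 is not part of the translation machinery by name. On the recovered reads, edgeR with TMM scaling called 10 members higher and 8 lower (17.8% and 19.6% over all gene models), and so did DESeq2 (16.9% and 18.6%). All 14 that limma called were among them in both.

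**Figure D2:**
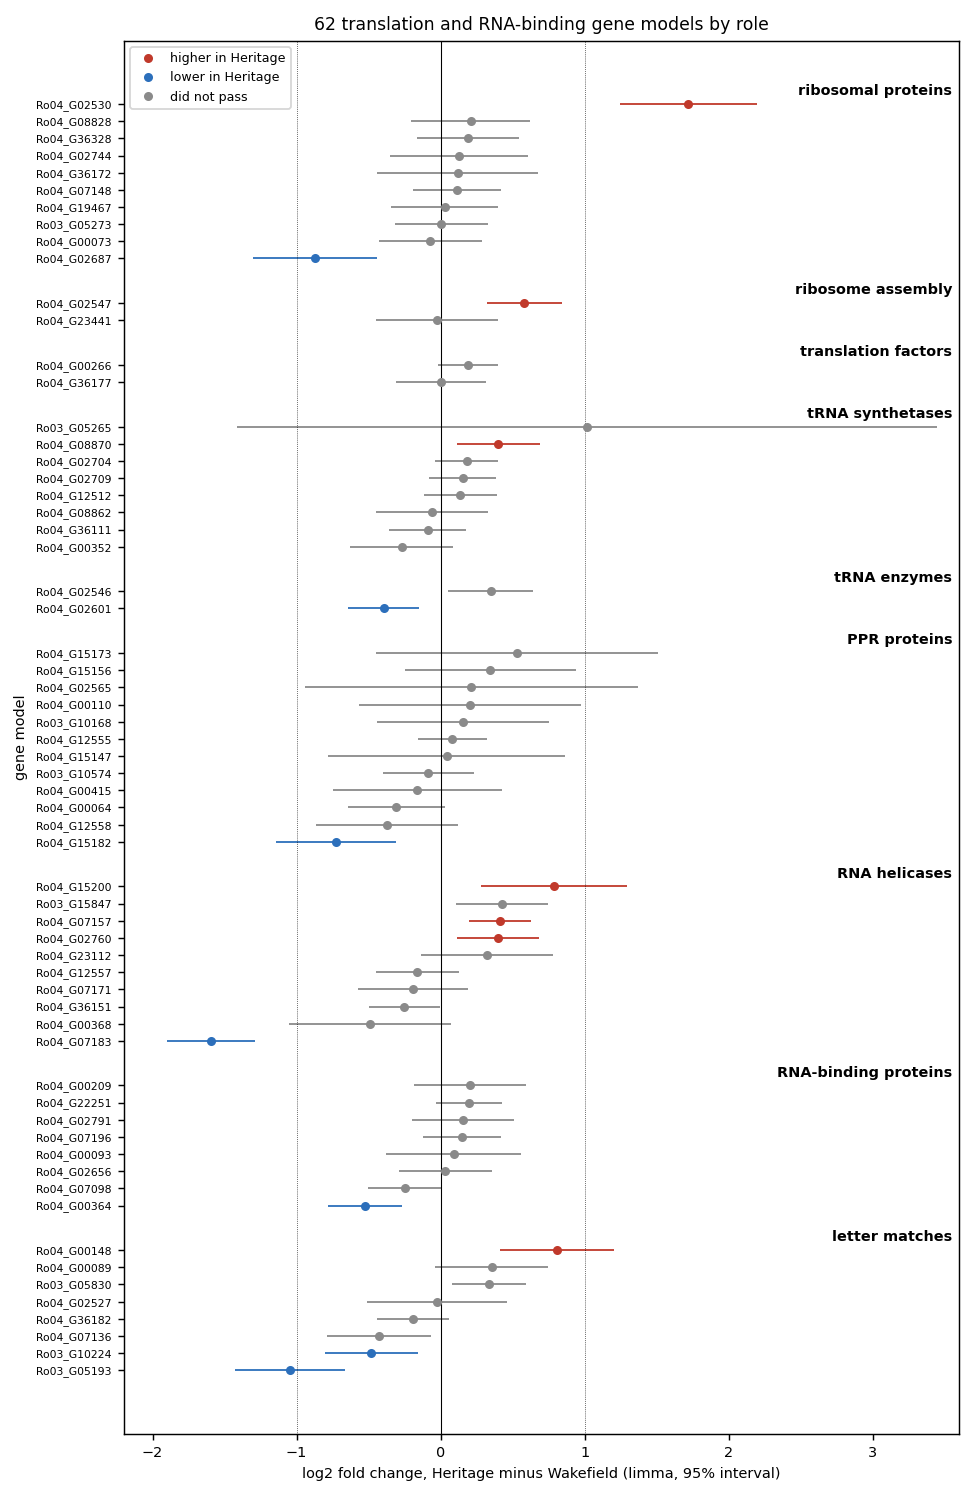
Log2 fold change of ‘Heritage’ minus ‘Wakefield’ (x axis) for each of the 62 members tested (y axis), by role, with 95% intervals from limma. Red points were higher and blue points lower in ‘Heritage’ at an adjusted p under 0.05, grey points did not pass, and dotted lines mark -1 and 1. Most intervals cross 0, and Ro04_G02530 and Ro04_G07183 lie farthest from it among the coloured points.

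The 2 ribosomal protein gene models that passed changed in opposite directions. Of 10 gene models, 1 was higher in ‘Heritage’, 1 was lower and 8 did not pass (median log2 fold change 0.12). The higher one, ribosomal protein S15A (Ro04_G02530, at 3756123 bp on LG4), encodes a protein of the small subunit. Its normalized counts were 98.4, 116 and 108 in ‘Heritage’ and 42.3, 26.4 and 29.0 in ‘Wakefield’. Every ‘Heritage’ library was above every ‘Wakefield’ library. The means differed 3.30-fold, 107 ± 8.97 in ‘Heritage’ and 32.6 ± 8.51 in ‘Wakefield’ (log2 fold change 1.72, standard error 0.19, limma adjusted p = 0.00272). The lower one, ribosomal protein L15 (Ro04_G02687, at 4754055 bp on LG4), is the orthologue of an Arabidopsis protein of the large subunit of the plastid ribosome. It had 345, 288 and 289 in ‘Heritage’ and 708, 510.1 and 489 in ‘Wakefield’. Here the groups did not overlap either, but ‘Wakefield’ library 59 stood above the other libraries of its cultivar. The means were 308 ± 32.7 in ‘Heritage’ and 569 ± 121 in ‘Wakefield’, 1.85-fold lower in ‘Heritage’ (log2 fold change -0.87, standard error 0.18, limma adjusted p = 0.0153). L15 did not pass without ‘Heritage’ library 63 or 64 (adjusted p up to 0.0616 from limma), and S15A fell short of an adjusted p of 0.01 without some libraries (at most 0.0169 from limma).

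The other 8 ribosomal protein gene models had log2 fold changes from -0.07 to 0.21, and the libraries of the cultivars overlapped for each of them. RPL16A (Ro03_G05273, at 40100622 bp on LG3), a large subunit protein, had 5020.1, 5692 and 5958 in ‘Heritage’ and 6106, 4845 and 5718 in ‘Wakefield’ (log2 fold change 0.0031, 95% interval -0.32 to 0.33). An L22p/L17e family gene model (Ro04_G07148) had 9624 ± 491 in ‘Heritage’ and 8925 ± 1144 in ‘Wakefield’, with an interval of -0.19 to 0.42. The L34e gene model (Ro04_G00073) had 2041 ± 225 in ‘Heritage’ and 2149 ± 298 in ‘Wakefield’, and the L18e/L15 gene model (Ro04_G19467) had 2111 ± 288 in ‘Heritage’ and 2068 ± 258 in ‘Wakefield’. The 60S acidic ribosomal protein (Ro04_G02744), of the stalk that recruits elongation factors, had 118, 106 and 113 in ‘Heritage’ and 129, 109 and 78.0 in ‘Wakefield’. The L18p/L5e family gene model (Ro04_G36172) had 32.3 ± 5.30 in ‘Heritage’ and 30.1 ± 8.65 in ‘Wakefield’. Adjusted p-values of the 8 ranged from 0.35 to 0.988 in limma.

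Of 2 gene models for ribosome assembly, 1 was higher in ‘Heritage’. A gar2-like gene model described for the assembly of 18S pre-ribosomes (Ro04_G02547, at 3876652 bp on LG4) had 325, 316 and 293 in ‘Heritage’ and 219, 216 and 190.1 in ‘Wakefield’. All ‘Heritage’ libraries were higher, with means of 312 ± 16.5 in ‘Heritage’ and 208 ± 15.9 in ‘Wakefield’ (log2 fold change 0.58, standard error 0.11, limma adjusted p = 0.0113), and it did not pass without library 63 (adjusted p up to 0.0537 from limma). The other, a methyltransferase of small subunit ribosomal RNA (Ro04_G23441), had 315 ± 37.3 in ‘Heritage’ and 323 ± 63.2 in ‘Wakefield’ (log2 fold change -0.03, limma adjusted p = 0.916). Neither of the 2 translation factors passed. Initiation factor IF6 (Ro04_G00266), which in eukaryotes keeps the large subunit from joining the small one too early, had 1506, 1458 and 1459 in ‘Heritage’ and 1293, 1300.2 and 1284 in ‘Wakefield’. The groups did not overlap but lay close, at 1.14-fold (log2 fold change 0.19, limma adjusted p = 0.137). eIF5A-1 (Ro04_G36177), which helps ribosomes through stretches of proline, had 3505 ± 132 in ‘Heritage’ and 3522 ± 489 in ‘Wakefield’ (limma adjusted p = 0.994).

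Among aminoacyl-tRNA synthetases 1 passed. Of 9 gene models 8 were tested, 1 was higher in ‘Heritage’ and 7 did not pass (median log2 fold change 0.14). The higher one was a glycyl-tRNA synthetase (Ro04_G08870, at 7363374 bp on LG4), with 947, 1057 and 1035 in ‘Heritage’ and 834, 681 and 792 in ‘Wakefield’. The groups did not overlap, and the difference of 1.32-fold (log2 fold change 0.40, standard error 0.12, limma adjusted p = 0.0452) was just past the threshold. It did not pass without library 60, 61, 62, 63 or 64 (adjusted p up to 0.152 from limma), nor with no filter on low values. Gene models for glutaminyl-tRNA (Ro04_G02704, log2 fold change 0.18, limma adjusted p = 0.168), cysteinyl-tRNA (Ro04_G02709, log2 fold change 0.15, limma adjusted p = 0.257) and threonyl-tRNA synthetase (Ro04_G00352, log2 fold change -0.27, limma adjusted p = 0.194) had intervals of -0.04 to 0.40, -0.08 to 0.39 and -0.63 to 0.08. Lysyl-tRNA synthetase 1 (Ro03_G05265, at 40162221 bp on LG3) was uneven, with 82.7, 4.67 and 8.17 in ‘Wakefield’ and 39.8, 30.9 and 26.7 in ‘Heritage’. Library 59 was far above the other ‘Wakefield’ libraries and above all ‘Heritage’ ones, while libraries 60 and 61 were below all of ‘Heritage’. Over all libraries its log2 fold change in limma was 1.02 with an interval of -1.41 to 3.45 (limma adjusted p = 0.459), and without library 59 it was 2.20 (adjusted p = 0.00652 from limma). The means over all libraries were nearly equal, 32.4 in ‘Heritage’ and 31.8 in ‘Wakefield’. On the recovered reads edgeR with TMM scaling gave a log2 fold change of -0.018 and DESeq2 0.016. The tyrosyl-tRNA synthetase gene model (Ro04_G12543) was too low to be tested, with 3, 0 and 0 reads in ‘Heritage’ and 0, 3 and 16 reads in ‘Wakefield’.

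Of 2 enzymes that act on tRNA after or beside charging, 1 was lower in ‘Heritage’. The tRNA arginine adenosine deaminase (Ro04_G02601, at 4215209 bp on LG4), whose Arabidopsis orthologue edits the anticodon of a plastid arginine tRNA, had 443, 436 and 399.9 in ‘Heritage’ and 598, 539.7 and 546 in ‘Wakefield’. All ‘Heritage’ libraries were lower, by 1.32-fold in the mean (log2 fold change -0.40, standard error 0.10, limma adjusted p = 0.0293). The deaminase no longer passed whichever of the 6 libraries was left out (adjusted p up to 0.0944 from limma). Its log2 fold change in these fits ran from -0.424 to -0.349. A D-aminoacyl-tRNA deacylase (Ro04_G02546), which clears D-amino acids from mischarged tRNA, had 629, 505 and 538 in ‘Heritage’ and 410.5, 460.3 and 438 in ‘Wakefield’. Its libraries did not overlap either, and it did not pass in limma (log2 fold change 0.35, limma adjusted p = 0.0717) but did in edgeR (adjusted p = 0.042 with TMM scaling).

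Among PPR gene models 1 passed. Of 13, 12 were tested, none of these was higher in ‘Heritage’, 1 was lower and 11 did not pass (median log2 fold change 0.06). In limma 1 of the 12 had an unadjusted p under 0.05, and edgeR and DESeq2 called none higher. The lower one (Ro04_G15182, at 3556949 bp on LG4) had 91.0, 121 and 114 in ‘Heritage’ and 180.3, 152 and 209.4 in ‘Wakefield’. The groups did not overlap, with means 1.66-fold lower in ‘Heritage’ (log2 fold change -0.73, standard error 0.17, limma adjusted p = 0.0235), and it did not pass without library 59, 61, 62, 63 or 64 (adjusted p up to 0.0669 from limma). PPR336 (Ro03_G10574, at 42456174 bp on LG3), found on mitochondrial polysomes in Arabidopsis, had 159 ± 22.7 in ‘Heritage’ and 168 ± 4.68 in ‘Wakefield’ (log2 fold change -0.08, limma adjusted p = 0.636). SVR7 (Ro03_G10168, at 43494499 bp on LG3), a plastid PPR protein that the rule took up only through the letters ppr in its name, suppressor of variegation, had 234 ± 12.7 in ‘Heritage’ and 217 ± 69.8 in ‘Wakefield’ (log2 fold change 0.16, limma adjusted p = 0.65). Ro04_G12555 had 661 ± 29.3 in ‘Heritage’ and 626 ± 34.7 in ‘Wakefield’, with an interval of -0.16 to 0.32. Ro04_G12558 (log2 fold change -0.37) and Ro04_G00064 (-0.31) were the next below 0, and Ro04_G15173 (0.53) and Ro04_G15156 (0.34) the farthest above 0, and their limma adjusted p-values were 0.201, 0.133, 0.342 and 0.309.

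Several PPR gene models had few reads, which limits what could be seen. Ro04_G00110, Ro04_G02565 and Ro04_G15147 had mean normalized counts of 11.9, 10.4 and 10.4 in ‘Heritage’ and 10.1, 8.596 and 9.57 in ‘Wakefield’. The interval of Ro04_G02565 ran from -0.94 to 1.37 and that of Ro04_G15173 from -0.45 to 1.51, and both reach beyond 1 on the log2 scale. Ro04_G00415 had 27.3 ± 1.89 in ‘Heritage’ and 31.7 ± 10.3 in ‘Wakefield’. One more PPR gene model (Ro04_G00087, at 2914212 bp on LG4) was under the filter on low values and was not tested. It had 6, 7 and 7 reads in ‘Heritage’ and 0, 0 and 2 reads in ‘Wakefield’, so every ‘Heritage’ library was above every ‘Wakefield’ library at a depth of few reads. With no filter it was called higher in ‘Heritage’ by limma and was a DEG (log2 fold change 2.46, limma adjusted p = 0.00842), and in DESeq2 it did not pass (log2 fold change 3.38, adjusted p = 0.0625).

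Among gene models described as RNA helicases 4 of 10 passed, 3 higher and 1 lower in ‘Heritage’, and 6 did not (median log2 fold change 0.08). Over all gene models 33.5% passed. This role was read from the descriptions alone, and whether each gene model acts on RNA was not tested. The lower one, a gene model described as a DEAD/DEAH box helicase (Ro04_G07183, at 6291907 bp on LG4), had 95.2, 105 and 110.5 in ‘Heritage’ and 358.8, 294 and 295 in ‘Wakefield’. Each ‘Wakefield’ library was above each ‘Heritage’ library by more than their spread, and the means were 104 ± 7.76 in ‘Heritage’ and 316 ± 37.2 in ‘Wakefield’, 3.05-fold lower in ‘Heritage’ (log2 fold change -1.59, standard error 0.13, limma adjusted p = 0.00103). It kept an adjusted p of 0.00857 or less from limma whichever library was left out. The higher ones changed less. Ro04_G15200 (at 3631807 bp on LG4), whose Arabidopsis orthologue is a DEAH-box helicase of pre-messenger RNA splicing, had 710.4, 612 and 544 in ‘Heritage’ and 465, 288 and 342 in ‘Wakefield’. The means differed 1.70-fold (log2 fold change 0.79, standard error 0.21, limma adjusted p = 0.0327), and it did not pass without library 60, 61, 62, 63 or 64 (adjusted p up to 0.102 from limma). Ro04_G07157 (at 6458643 bp on LG4), the orthologue of the Arabidopsis splicing helicase related to yeast PRP16, had 848, 856 and 817 in ‘Heritage’ and 651, 621 and 620.0 in ‘Wakefield’. Its libraries were close within each cultivar and apart between them, 1.33-fold (log2 fold change 0.41, standard error 0.09, limma adjusted p = 0.0177), and it did not pass without library 60, 62 or 63 (adjusted p up to 0.0819 from limma). Ro04_G02760 (at 5145423 bp on LG4), described as a DEA(D/H)-box helicase, had 1011, 1139 and 1244 in ‘Heritage’ and 830.3, 829 and 907 in ‘Wakefield’ (log2 fold change 0.40, standard error 0.12, limma adjusted p = 0.0439). It did not pass with no filter on low values, nor without library 59, 60, 61, 63 or 64 (adjusted p up to 0.138 from limma).

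RH36 (Ro03_G15847, at 35404190 bp on LG3), a DEAD-box helicase that processes 18S ribosomal RNA in Arabidopsis, had 336, 343 and 335 in ‘Heritage’ and 279.9, 213 and 265.8 in ‘Wakefield’. The groups did not overlap, and its adjusted p was 0.0506 from limma, 0.0407 from edgeR and 0.0423 from DESeq2 (log2 fold change 0.43 in limma). Ro04_G36151 (log2 fold change -0.25) had ‘Heritage’ below ‘Wakefield’ in all libraries and did not pass (limma adjusted p = 0.103). Ro04_G00368, Ro04_G12557 and Ro04_G07171 had log2 fold changes of -0.49, -0.16 and -0.19 (adjusted p = 0.147, 0.323 and 0.372 from limma), with overlapping libraries. Ro04_G23112 had 466 ± 22.3 in ‘Heritage’ and 381 ± 94.97 in ‘Wakefield’, and it passed without ‘Wakefield’ library 61 (log2 fold change 0.51, adjusted p = 0.0344 from limma).

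**Figure D3:**
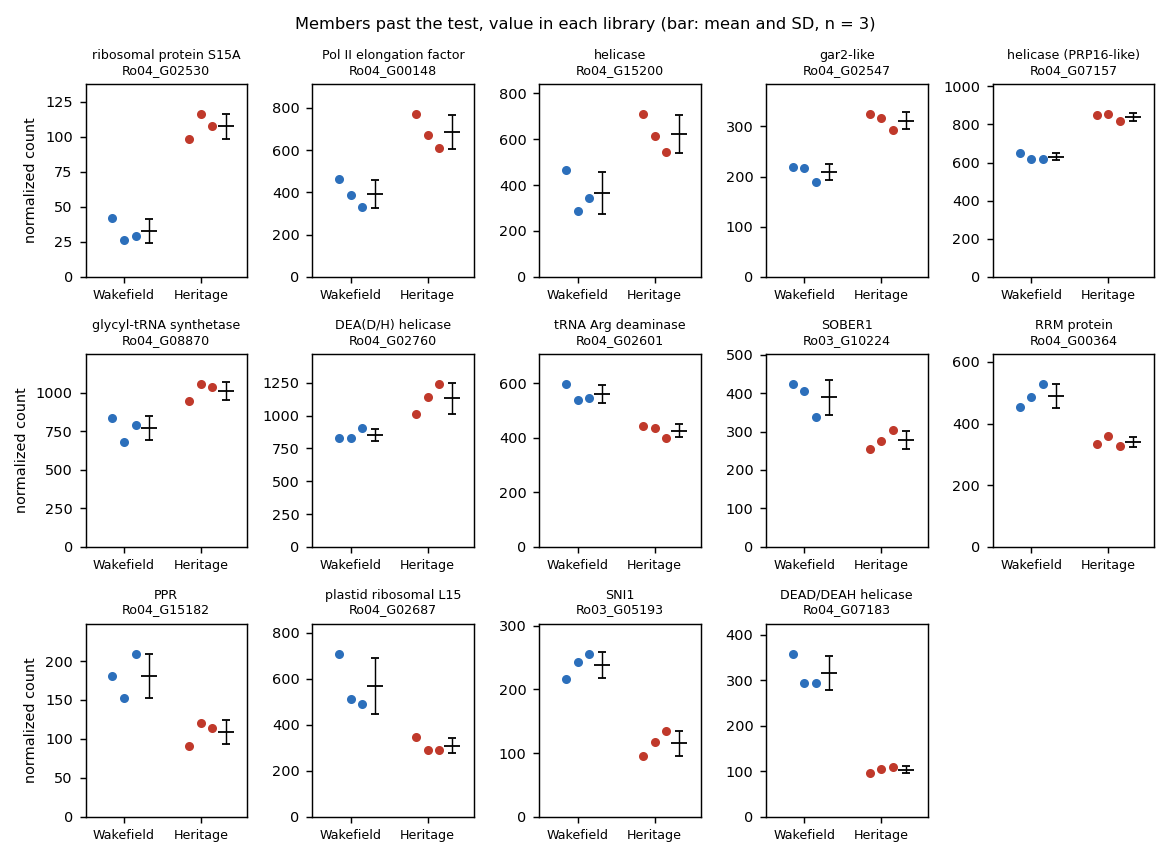
Normalized count (y axis, from 0) of the 14 members past the test in each of the 3 ‘Wakefield’ (blue) and 3 ‘Heritage’ (red) libraries, with the mean and SD of each cultivar beside the points. In each panel the libraries of the cultivars do not overlap. The ratio of the means is largest for S15A (Ro04_G02530) and the gene model described as a DEAD/DEAH box helicase (Ro04_G07183).

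Among RNA-binding proteins, such as those with an RRM, KH or CRM domain, 1 passed. Of 8 gene models none was higher in ‘Heritage’, 1 was lower and 7 did not pass (median log2 fold change 0.12). In limma 1 of the 8 had an unadjusted p under 0.05, and edgeR and DESeq2 called none higher. The lower one, an RRM gene model (Ro04_G00364, at 1242015 bp on LG4) whose Arabidopsis orthologue is a plastid protein, had 335, 358.9 and 327 in ‘Heritage’ and 454, 487 and 529 in ‘Wakefield’. The groups did not overlap and the means were 1.44-fold lower in ‘Heritage’ (log2 fold change -0.52, standard error 0.10, limma adjusted p = 0.0148), but it did not pass without library 62 or 64 (adjusted p up to 0.0506 from limma). Of the others, Ro04_G22251 had 1561 ± 55.5 in ‘Heritage’ and 1360.1 ± 60.6 in ‘Wakefield’ with separate groups (log2 fold change 0.20, limma adjusted p = 0.148), and Ro04_G07098, with few reads, had 26.3 ± 2.07 in ‘Heritage’ and 31.4 ± 1.63 in ‘Wakefield’, also separate (log2 fold change -0.25, limma adjusted p = 0.119). SRP72 (Ro04_G07196), an RNA-binding part of the signal recognition particle that brings ribosomes to the endoplasmic reticulum, had 1097 ± 38.9 in ‘Heritage’ and 993 ± 96.8 in ‘Wakefield’. The KH domain gene model Ro04_G02656 had 857 ± 108 in ‘Heritage’ and 836 ± 66.3 in ‘Wakefield’ (95% interval of the log2 fold change -0.29 to 0.35). Ro04_G02791 and Ro04_G00093 had log2 fold changes of 0.16 and 0.09, and the CRM domain gene model Ro04_G00209 of 0.20, with adjusted p-values from 0.357 to 0.741 from limma.

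The rule also took up 8 gene models by the wording of their descriptions that are not part of the translation machinery by name. In 6 the letters ppr stand in suppressor or appr-1-p, and 2 are elongation factors of another kind. Of these 8, 1 was higher in ‘Heritage’, 2 were lower and 5 did not pass. Without them the members were 54 tested, 6 higher, 5 lower and 43 that did not pass. SNI1 (Ro03_G05193, at 40524422 bp on LG3), which in Arabidopsis represses systemic acquired resistance and belongs to the SMC5/6 complex of DNA repair, had 95.2, 118 and 134 in ‘Heritage’ and 217, 243 and 256 in ‘Wakefield’. All ‘Heritage’ libraries were lower, 2.06-fold in the mean (log2 fold change -1.05, standard error 0.16, limma adjusted p = 0.00601), and its adjusted p stayed at 0.0286 or less from limma whichever library was left out. Each of these 6 values was above 0.01, so it was no longer a DEG whichever library was left out, nor with a pseudocount of 10. A gene model described as an RNA polymerase II transcription elongation factor (Ro04_G00148, at 2559214 bp on LG4) had 772, 671 and 612 in ‘Heritage’ and 461, 386 and 332 in ‘Wakefield’. It was 1.74-fold higher in ‘Heritage’ (log2 fold change 0.81, standard error 0.16, limma adjusted p = 0.0147) and did not pass without library 62 or 63 (adjusted p up to 0.0543 from limma). SOBER1 (Ro03_G10224, at 43190811 bp on LG3), a hydrolase that dampens the response to a bacterial effector in Arabidopsis, had 255, 274 and 304 in ‘Heritage’ and 425, 406 and 338 in ‘Wakefield’ (log2 fold change -0.48, standard error 0.13, limma adjusted p = 0.0368). It did not pass without library 59, 60, 62, 63 or 64 (adjusted p up to 0.117 from limma).

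SUF4 (Ro03_G05830, at 36304989 bp on LG3), which in Arabidopsis activates the floral repressor FLC together with FRIGIDA, had 1558, 1379 and 1331 in ‘Heritage’ and 1156, 1086 and 1137 in ‘Wakefield’. Every ‘Heritage’ library was above every ‘Wakefield’ library, but the difference was 1.26-fold and stood at the threshold (log2 fold change 0.33, adjusted p = 0.0533 from limma, 0.0244 from edgeR and 0.0153 from DESeq2). A rubber elongation factor gene model (Ro04_G07136), of a family that coats lipid droplets, had 1141 ± 31.9 in ‘Heritage’ and 1554 ± 280.4 in ‘Wakefield’ (log2 fold change -0.43, limma adjusted p = 0.0687, edgeR adjusted p = 0.0313). Ro04_G00089, Ro04_G36182 and Ro04_G02527 had log2 fold changes of 0.35, -0.19 and -0.03, and none of them passed in limma, edgeR or DESeq2.

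In the stretch of LG4 from 3.6 to 4.1 Mb, marked for RiAF4 in a figure caption of the study, lie 6 members. Among the 6, 3 rose, 0 fell and 3 missed the threshold, beside shares over the whole table of 16.0% higher and 33.5% called in either direction. S15A (Ro04_G02530), the splicing helicase Ro04_G15200 and the gar2-like gene model Ro04_G02547, whose values are given above, were the higher ones. The D-aminoacyl-tRNA deacylase (Ro04_G02546) had separate groups with ‘Heritage’ above and an adjusted p of 0.0717 from limma. A PPR gene model (Ro04_G02565, log2 fold change 0.21) and a gene model described only as suppressor (Ro04_G02527, -0.03) had overlapping libraries. The study's text gives wider bounds, which take in 9 members, 3 higher, 2 lower and 4 that missed the threshold. The 2 lower ones are the PPR gene model Ro04_G15182 at 3556949 bp (log2 fold change -0.73) and the tRNA arginine deaminase Ro04_G02601 at 4215209 bp (-0.40), so the absence of lower members holds for the narrower bounds alone. Whether this stretch differs from the rest of the intervals was not tested.

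For 3 pairs of members both gene models have the same Arabidopsis orthologue, so that a difference between the cultivars can be set side by side in related copies. Reads shared by such copies may have been split between them, since the counting program is not named. The alanyl-tRNA synthetase gene models Ro04_G12512, at 416773 bp, and Ro04_G36111, at 516916 bp on LG4, overlapped between the cultivars. Ro04_G12512 had 1558, 1607 and 1686 in ‘Heritage’ and 1564, 1513 and 1344 in ‘Wakefield’. Ro04_G36111 had 157, 191 and 175 in ‘Heritage’ and 189.7, 187 and 179 in ‘Wakefield’. Their log2 fold changes were 0.14 and -0.09, a difference of 0.23 (exact permutation test, two-sided, p = 0.1). The glycyl-tRNA synthetase gene model Ro04_G08862, at 7320572 bp on LG4, had 1869, 2208 and 2501 in ‘Heritage’ and 2645, 2076 and 2129 in ‘Wakefield’, and overlapped where its copy Ro04_G08870 did not. Their log2 fold changes of -0.06 and 0.40 differed by -0.46 (exact permutation test, two-sided, p = 0.1). The ribosomal protein S27 gene models, Ro04_G08828 at 7061123 bp and Ro04_G36328 at 7395733 bp on LG4, encode a small subunit protein. Ro04_G08828 had 1193, 1405 and 1516 in ‘Heritage’ and 1337, 969 and 1274 in ‘Wakefield’. Ro04_G36328 had 2757, 3129 and 3263 in ‘Heritage’ and 3158, 2538 and 2368 in ‘Wakefield’. Both overlapped, with log2 fold changes of 0.21 and 0.19, 0.02 apart (exact permutation test, two-sided, p = 0.9). With 3 against 3 libraries the smallest p this test allows is 0.1, and adjusted over the 3 pairs the p-values were 0.15, 0.15 and 0.9, so that none of the 3 differences could pass 0.05.

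A gene model outside the rule, EMB3011 (Ro03_G05789, at 36080729 bp on LG3), has the same orthologue as the member Ro04_G07157, the splicing helicase related to PRP16. It had 288, 259 and 280.0 in ‘Heritage’ and 214, 182 and 199 in ‘Wakefield’, and like Ro04_G07157 it was higher in ‘Heritage’, 1.39-fold against 1.33-fold (log2 fold change 0.47, standard error 0.11, limma adjusted p = 0.0215). EMB3011 did not pass without library 60, 62, 63 or 64 (adjusted p up to 0.0694 from limma). As for the pairs above, reads shared by EMB3011 and Ro04_G07157 may have been split between them, so their differences may not be independent.

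**Figure D4:**
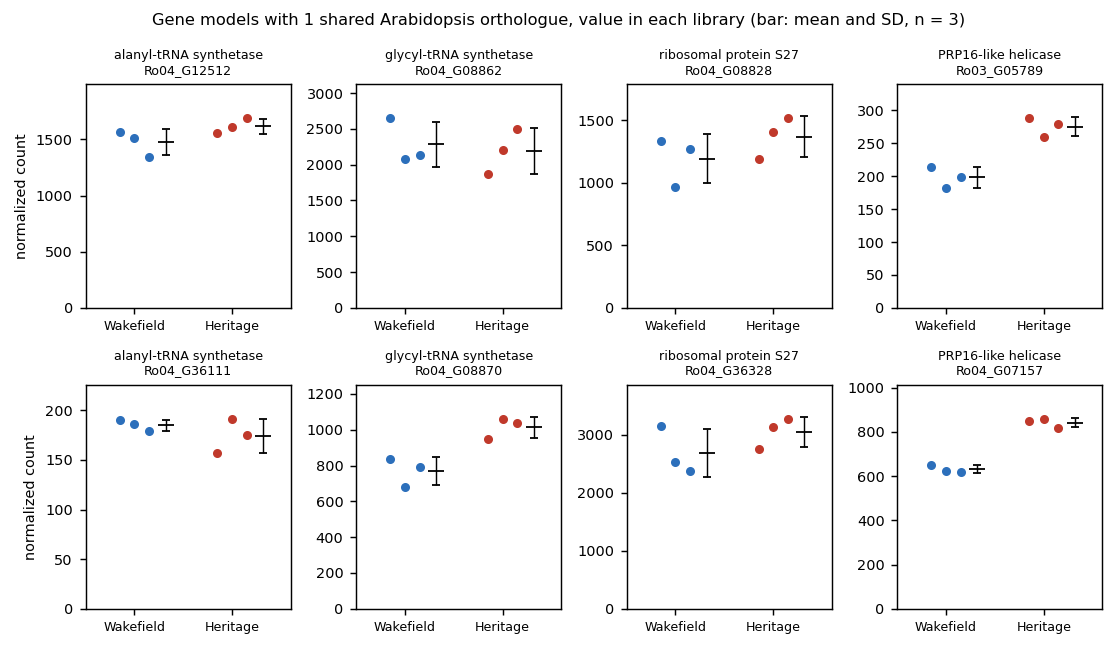
Normalized count (y axis, from 0) in each of the 3 ‘Wakefield’ (blue) and 3 ‘Heritage’ (red) libraries for pairs of gene models with 1 shared Arabidopsis orthologue, 1 pair per column, with the mean and SD of each cultivar. Both PRP16-like gene models are higher in all ‘Heritage’ libraries, 1 of the 2 glycyl-tRNA synthetases is, and the other panels overlap.

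The members lower in ‘Heritage’ include 3 whose Arabidopsis orthologues act in plastids: ribosomal protein L15 (Ro04_G02687), the tRNA arginine deaminase (Ro04_G02601) and the RRM gene model Ro04_G00364. They were picked out among the members already called lower, and the plastid genes among all members tested were not counted. The 17.5% of all gene models tested that were lower is therefore not a share to read them against. The following genes were gathered after these values were seen and are not all the plastid genes of the intervals, so no count over them is given. EMB3113 (Ro03_G06535, at 40898308 bp on LG3), is the plastid ribosomal protein S5. It had 191, 166 and 198 in ‘Heritage’ and 321, 349.9 and 300.0 in ‘Wakefield’, 1.75-fold lower in ‘Heritage’ with no overlap (log2 fold change -0.80, standard error 0.12, limma adjusted p = 0.00578), and it passed whichever library was left out. EMB2369 (Ro03_G13505), an organellar leucyl-tRNA synthetase, had 219, 281 and 350.4 in ‘Heritage’ and 496, 414 and 375 in ‘Wakefield’. Its groups did not overlap, and its adjusted p was 0.0659 from limma and 0.0438 from edgeR (log2 fold change -0.61 in limma). The helicase Ro04_G00368, orthologue of a plastid RNA helicase, had 103, 182 and 141 in ‘Heritage’ and 225, 184 and 177 in ‘Wakefield’ and overlapped (log2 fold change -0.49, limma adjusted p = 0.147). SVR7 (Ro03_G10168) and the CRM domain gene model Ro04_G00209, orthologue of a plastid intron splicing factor, had log2 fold changes of 0.16 and 0.20, so plastid genes did not all lie on 1 side. Other gene models with organellar orthologues did not pass either, such as proteinaceous RNase P 1 (Ro04_G36184, log2 fold change -0.35, limma adjusted p = 0.113) and the EMB2279 gene models Ro03_G15796 (log2 fold change -0.01, limma adjusted p = 0.943) and Ro03_G33009 (log2 fold change -0.15, limma adjusted p = 0.29). The summed level of the 8 photosynthesis markers named above was also lower in ‘Heritage’ (9913 to 10840.3 against 15175 to 20781), with 4 of the 8 lower and 4 not called. Only Ro04_G00083, described as a putative ran guanine nucleotide release factor, had a log2 fold change above 0 (1.13). The part of these markers in the differences above was not tested.

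**Figure D5:**
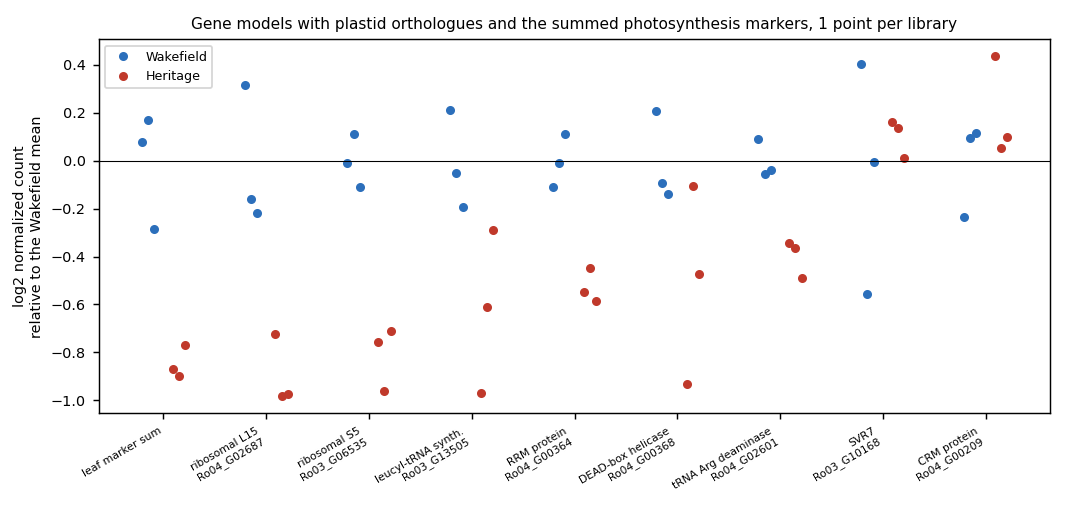
Log2 normalized count relative to the ‘Wakefield’ mean (y axis) in each of the 3 ‘Wakefield’ (blue) and 3 ‘Heritage’ (red) libraries, for the sum of the 8 photosynthesis markers and for 8 gene models whose orthologues act in plastids, chosen after their values were seen. In the first columns all ‘Heritage’ libraries lie below all ‘Wakefield’ libraries, while the DEAD-box helicase (Ro04_G00368), SVR7 (Ro03_G10168) and the CRM gene model (Ro04_G00209) overlap.

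Other genes of RNA metabolism in the intervals, 30 gene models that the rule does not take, were counted in the same way. Of 29 tested in limma, 2 were higher in ‘Heritage’, 1 was lower and 26 did not pass (median log2 fold change 0.06). The share called was 10.3%, against 33.5% of all gene models. Of the same 29, edgeR with TMM scaling called 3 higher and 2 lower, and DESeq2 3 higher and 3 lower. Over all gene models these tests called 37.4% and 35.5%. The list was chosen with earlier results of these data known, so its share is not read as a result about RNA genes. The 3 that limma called are EMB3011, EMB3113 and a polynucleotide adenylyltransferase family gene model (Ro04_G00249). Ro04_G00249 had 541, 529.7 and 568 in ‘Heritage’ and 410.5, 437 and 454 in ‘Wakefield’ (log2 fold change 0.33, standard error 0.09, limma adjusted p = 0.0415). It no longer passed with no filter, or whichever of the 6 libraries was left out (adjusted p up to 0.117 from limma). EIF4E1 (Ro03_G13380), which binds the cap of messenger RNA to start translation, had 1272, 1206 and 1175 in ‘Heritage’ and 921, 950.2 and 1086 in ‘Wakefield’, with separate groups (log2 fold change 0.31, limma adjusted p = 0.0723, edgeR adjusted p = 0.0401). Nucleolin like 2 (Ro04_G12505), of the nucleolus, had 7939.6 ± 1100.1 in ‘Heritage’ and 6591 ± 741 in ‘Wakefield’ (log2 fold change 0.27, limma adjusted p = 0.219), and decapping 5 (Ro04_G02616), of messenger RNA decay, had 2363 ± 29.5 in ‘Heritage’ and 2124 ± 47.9 in ‘Wakefield’ (log2 fold change 0.15, limma adjusted p = 0.212). AGO2 (Ro03_G10872) and another Argonaute family gene model (Ro04_G00017), which carry small RNAs, had log2 fold changes of 0.21 and 0.37 (adjusted p = 0.333 and 0.0961 from limma). A ribonuclease 1 gene model (Ro04_G00062) had the largest difference of the 26, with 88.7 ± 38.0 in ‘Heritage’ and 170.3 ± 62.4 in ‘Wakefield’ and overlapping groups (log2 fold change -0.95, limma adjusted p = 0.102), and it passed in DESeq2 (log2 fold change -0.93, adjusted p = 0.0402). A second ribonuclease 1 gene model (Ro04_G36171) had few reads and was not tested.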

How the data were processed

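The authors passed reads of 3 ‘Heritage’ and 3 ‘Wakefield’ bud libraries through Trimmomatic and SortMeRNA, which removes ribosomal RNA, and then STAR against black raspberry (R. occidentalis, ORUS 4115-3 v3.0) gene models. The counting program and strand setting were not given in the sources used here. As signal, the authors deposited normalized counts, made by dividing each library's counts by its DESeq2 size factor. Columns of the authors' own comparison (log2 fold change, its standard error, a test score and p-values) were not used. Such scaling takes most genes as equal between libraries, and alignment to another species lets sequence differences between cultivars change a count.

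In all libraries 100% of values gave whole reads (within 0.001 of a read) when divided by the smallest step of their library, and these recovered reads were used for count tests. limma 3.58.1 (R 4.3.3) was run on log2(value + 1) for gene models with at least 10 in at least 3 libraries, with Benjamini-Hochberg adjustment over 17898. Calls had an adjusted p under 0.05. DEGs passed 0.01 with a log2 fold change beyond 1 in size. On the recovered reads of the same gene models, edgeR 4.0.16 called 17.8% higher and 19.6% lower in ‘Heritage’. Alternatives were edgeR with TMM or RLE scaling, DESeq2 1.42.0, pseudocounts of 0.1 and 10, no filter, a filter of at least 50, limma with a mean-variance trend, and each library left out in turn with the gene models tested kept. Python 3.11.15 served for tables and permutations.

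The members and lists were chosen with earlier results of these data known. All members are described by role, with values for those past the test, those with a shared orthologue, those from 3.6 to 4.1 Mb of LG4, those under the filter and the extremes of each role, and the related genes past the test. Any other gene was named after its values were seen. The replicates are described as biological, and the plants behind them are not given.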

Additional observations from a re-analysis of the deposited data

How the results depend on the processing

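No paired analysis was possible because the libraries of the 2 cultivars share no replicate number. All 14 members past the test also passed in edgeR, in DESeq2, with a mean-variance trend, with pseudocounts of 0.1 and 10 and with a filter of at least 50, and 12 did with no filter. Leaving out each library in turn, members higher in ‘Heritage’ numbered 1 to 8 and members lower 2 to 5, and DEGs 0 to 2 higher and 1 to 1 lower. Related RNA genes numbered 0 to 1 higher and 1 to 3 lower. With fewer samples fewer gene models passed over the whole table too. With no filter, 2 members were DEGs higher, the PPR gene model Ro04_G00087 among them, and 1 related RNA gene was higher, and with a pseudocount of 10, 1 member was a DEG lower. Related RNA genes lower in ‘Heritage’ numbered 2 in edgeR with TMM or RLE scaling and with a mean-variance trend, and 3 in DESeq2. For these differences between settings the cause was not tested. No log2 fold change of a member past the test changed sign under any alternative run. The difference between the S27 gene models of 0.02 turned to -0.0152, -0.0896 and -0.00763 without ‘Wakefield’ library 59, ‘Wakefield’ library 60 and ‘Heritage’ library 64, and over all libraries left out it ran from -0.0896 to 0.158. Wider bounds for the LG4 stretch, added after the data were seen, gave 9 members in place of 6, with 3 higher and 2 lower in place of 0. Depth limits the PPR gene models with few reads and the 2 members not tested.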
